A study of Rattus norvegicus with 10 samples.

Results

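In the rat, 5793 regions of the autosomes were open in abdominal white adipose tissue and not called open in gastrocnemius muscle. They are the adipose-exclusive regions, chosen by the presence of a listed peak in each of the 5 adipose libraries and the absence of one in each of the 5 muscle libraries, after the peaks of all 10 libraries on chromosomes 1 to 20 had been merged where they shared at least 1 bp. They made up 0.741% of the 781477 merged regions and covered 4.13 Mb. The assay was ATAC-seq: nuclei, about 75000 per library, are treated with a transposase that cuts accessible DNA and adds sequencing adapters to it. Both groups were Fischer 344 rats labelled male and 8 months of age, kept on a reversed light cycle, given no treatment that the labels name, and anesthetized with isoflurane before dissection and freezing of the tissue; as labelled, they differ in the tissue alone. The design text names 9 samples of each tissue, of which 5 each were analysed here, and speaks of single animals and of tissue pooled from 15 males without tying either to a library, so a p-value measures only the spread between these libraries, which may be technical. Because the rule compares calls in these same libraries, the counts, strengths and widths of the regions are given as a description, and a test is given only where libraries were held out of the choice.

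White adipose tissue stores triglyceride in adipocytes and releases it as fatty acids, and it also holds progenitors, fibroblasts, endothelial cells, immune cells and, around abdominal depots, mesothelium. Gastrocnemius is a limb muscle made mostly of multinucleate myofibres. Open chromatin marks promoters and enhancers where transcription factors have displaced nucleosomes. Promoters of widely used genes are open in most tissues, whereas many distal enhancers are open in 1 lineage; in adipocytes the factors PPARG and the C/EBP family are known to bind such enhancers. In bulk tissue, a region open in a few cells of a type and a region weakly open in many cells cannot be told apart. No gene positions of the build of these files, rn6, were used here, so the regions are named by position, and the tissue labels were not checked against marker genes.

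The libraries did not share a threshold, and 3 of them went against a label. Each adipose list held 243928 to 259149 distinct peaks and ended at a −log10 p of 3.26 to 4.27. Each muscle list held 164283 to 188890 and ran down to a −log10 p of 2.00. Before rows sharing an interval were joined, the adipose lists held 298639 to 299093 rows each and the muscle lists 227958 to 251869. Whether the adipose lists had been cut at a set number of rows was not tested. Adipose replicates 2, 3 and 4 had 0, 0 and 1 peaks on chromosome Y and 2.78% to 3.47% of their peaks on X, although all libraries are labelled male. Adipose replicates 1 and 5 had 31 and 45 peaks on Y and 1.07% and 1.45% on X, close to the 16 to 24 peaks on Y and 1.41% to 1.74% on X of the muscle libraries. The regions described here lie on the autosomes, and the main results are also given for the adipose libraries of each kind: replicates 1 and 5 by themselves gave 30091 regions without a muscle peak, and replicates 2, 3 and 4 gave 14286, where fewer libraries make the rule looser. On chromosome X, which the rule leaves out, 67 of the 959 regions called in all 5 adipose libraries (6.99%) had no muscle peak.

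Most regions that were open throughout the adipose libraries were open in muscle as well. Of the 58550 regions with a peak in all 5 adipose libraries, 40670 (69.5%) had a peak in all 5 muscle libraries and 5793 (9.89%) in none. Between these ends there were 2929, 2451, 2666 and 4041 regions with a peak in 1, 2, 3 and 4 muscle libraries, so the regions fell mainly at the 2 ends of the scale. Without a muscle peak, the number of regions dropped as more adipose libraries were asked for, from 362803 in exactly 1 library to 76265, 26936, 11576 and 5793 in 2, 3, 4 and 5. The regions called in 1 adipose library alone were narrow, with a median width of 197 bp, and 6.13% of their peaks were strong, meaning a −log10 q of at least 5. The adipose-exclusive regions had a median width of 666 bp and a strong peak in 56.0% of cases (mean over the 5 libraries, SD 9.98). Merging peaks of more libraries widens a region by construction, and single peaks in these regions had medians of 326 to 393 bp by library. Regions called in all 5 adipose libraries and 1 muscle library were similar, at 704 bp and 57.2%.

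**Figure D1:**
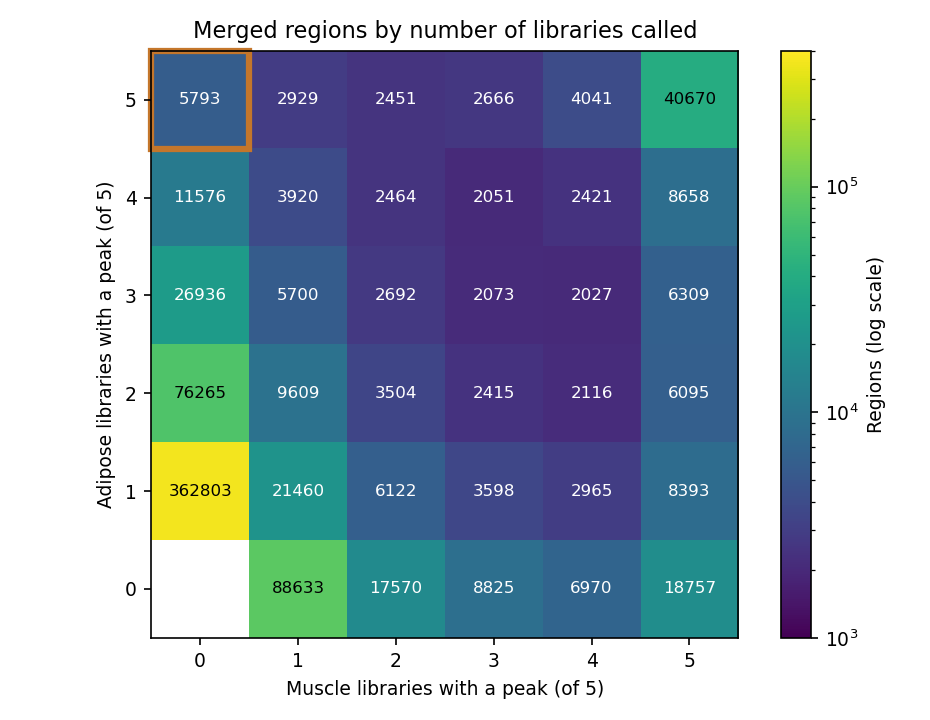
Number of merged regions by the number of adipose libraries (vertical, 0 to 5) and muscle libraries (horizontal, 0 to 5) with a peak in them, with the count written in each cell and a logarithmic colour scale. The framed cell holds the 5793 adipose-exclusive regions, and the opposite corner of the top row holds the 40670 regions called in all 10 libraries.

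Summit signal was modest in every adipose library. The deposited fold enrichment and p of a peak together fix the number of reads piled up at its summit and the local background, under the peak caller's usual Poisson model with 1 added to both. This relation held within 0.02 of the −log10 p for 28949 of 28965 peaks of the regions, and 0 of them came out with a background under the library's genome-wide level. The median region had 17, 24, 24, 26 and 20 reads at its summit in adipose replicates 1 to 5. The median local background was 3.84, 5.11, 5.17, 6.45 and 4.04 reads in the same order. A summit of 17 reads has an exact 95% Poisson interval of 9.90 to 27.2 reads, and one of 26 reads an interval of 17.0 to 38.1, which cover counting error only. In any single library a region thus rested on a small count.

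In fold enrichment, the median region stood at 3.50, 3.78, 3.70, 3.37 and 3.79 in adipose replicates 1 to 5, with quartiles between 2.92 and 5.04 over the libraries. In muscle the values at these regions are not listed, but the end of each list gives their upper limit. At the genome-wide background, a muscle summit of up to 9, 10, 9, 7 and 10 reads in replicates 1 to 5 stayed below the list's floor, which is a fold enrichment of at most 1.92, 1.84, 1.78, 1.78 and 1.81. The weakest listed muscle peaks at that background had 10, 11, 10, 8 and 11 reads, 1 more than the limit in each library. A muscle summit that was too short for the caller, or that fell to the unstated filter on the lists, could lie above this limit. The adipose lists ended higher: their weakest peaks at the genome-wide background had 10, 12, 13, 16 and 11 reads. Nearly every region, 5777 of 5793 (99.7%), therefore had its lowest adipose fold enrichment above the highest muscle limit, 1.92, by the choice of the regions and the unequal ends of the lists, and this share carries no weight of its own. The lowest adipose value was above 1.5 times that limit in 2809 regions (48.5%), above 2 times in 570 (9.84%) and above 3 times in 46 (0.794%). The median over the libraries, at 3.60 for the median region, was 1.87 times the limit. The lists thus leave room for a difference of less than 2-fold at most regions, while 46 stood more than 3-fold above the muscle limit in every adipose library.

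**Figure D2:**
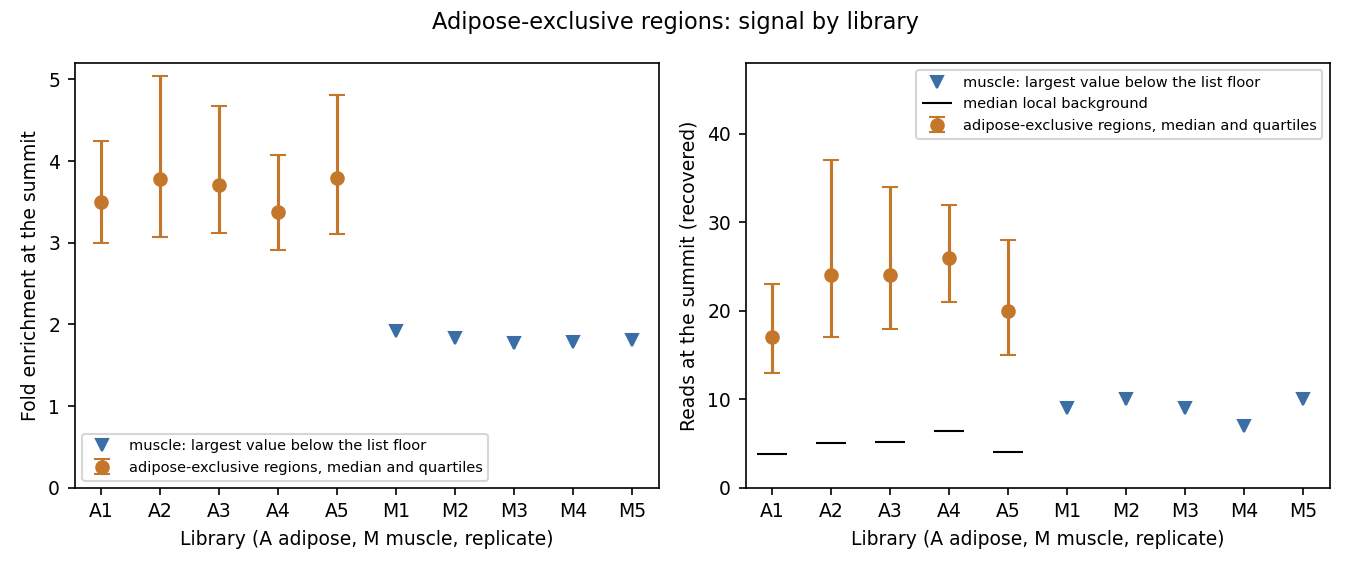
Fold enrichment (left) and recovered reads (right) at the summit, by library. Circles and bars give the median and quartiles over the 5793 regions in adipose libraries A1 to A5, dashes the median local background, and triangles the largest value that muscle libraries M1 to M5 could hold at the genome-wide background without a listed peak; the adipose medians of 3.37 to 3.79 lie above the muscle limits of 1.78 to 1.92.

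The regions differed in how many adipose libraries held them strongly. A strong peak was found in all 5 libraries in 1013 regions (17.5%), in 4 in 1121, in 3 in 1213, in 2 in 1060, in 1 in 904 and in none in 482 (8.32%). By library, 38.6% of the regions were strong in adipose replicate 1 and 60.4%, 62.7%, 61.7% and 56.5% in replicates 2 to 5. Replicate 1 was the lowest and also had the lowest genome-wide background, 3.01 reads against 3.22 to 5.23 in the other adipose libraries; the part of depth in this share was not tested. When the rule was applied to strong peaks alone, it gave 2008 regions, of which 1013 (50.4%) overlapped an adipose-exclusive region. Another 993 (49.5%) were touched by a muscle peak below the strong threshold, so about equal numbers of the strong adipose regions lacked any listed muscle peak and had a weak one.

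Adipose libraries ranked these regions less alike than the regions open everywhere. Each region was given its percentile of fold enrichment within each adipose list, and Spearman's rho was taken across regions, which are not independent replicates. Over the 10 pairs of adipose libraries rho averaged 0.390 for the 5793 adipose-exclusive regions, with a range of 0.308 to 0.508. It averaged 0.790 for the 40670 regions called in all 10 libraries, with a range of 0.728 to 0.846, so the ranges did not overlap. The highest values were 0.508 between replicates 2 and 3 and 0.474 between replicates 1 and 5, and the lowest was 0.308 between replicates 1 and 4.

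A base under a peak of all 5 adipose libraries was present in 4805 regions (82.9%), and the shared stretch had a median length of 197 bp. In the other regions peaks were joined only through merging: 809 had a base shared by at most 4 libraries, 176 by at most 3 and 3 by at most 2. Strongest summits of the 5 libraries lay within a median of 165 bp of each other (quartiles 68 and 355 bp). They were within 100 bp in 2112 regions (36.5%) and more than 500 bp apart in 818 (14.1%). For comparison, the median distance over the adipose summits was 68 bp in regions called in all 10 libraries, and 180, 149, 130 and 116 bp in those with a peak in 1, 2, 3 and 4 muscle libraries.

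Agreement in position went with strength. Regions strong in no library had a median summit distance of 374 bp, and 46.3% of them had a base under all 5 libraries. In those strong in 3 libraries the distance was 143 bp and the share 89.9%, and in those strong in all 5 it was 76 bp and 99.5%. A region's lowest summit count over the adipose libraries had a median of 12 reads where none was strong and 24 where all 5 were. The part of counting error in the summit distance was not tested. Median width changed little over these classes, from 625 to 713 bp with no steady order. A muscle peak within 10 kb was also more frequent beside the strong regions, at 78.3% of those strong in all 5 libraries against 50.6% of those strong in none.

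**Figure D3:**
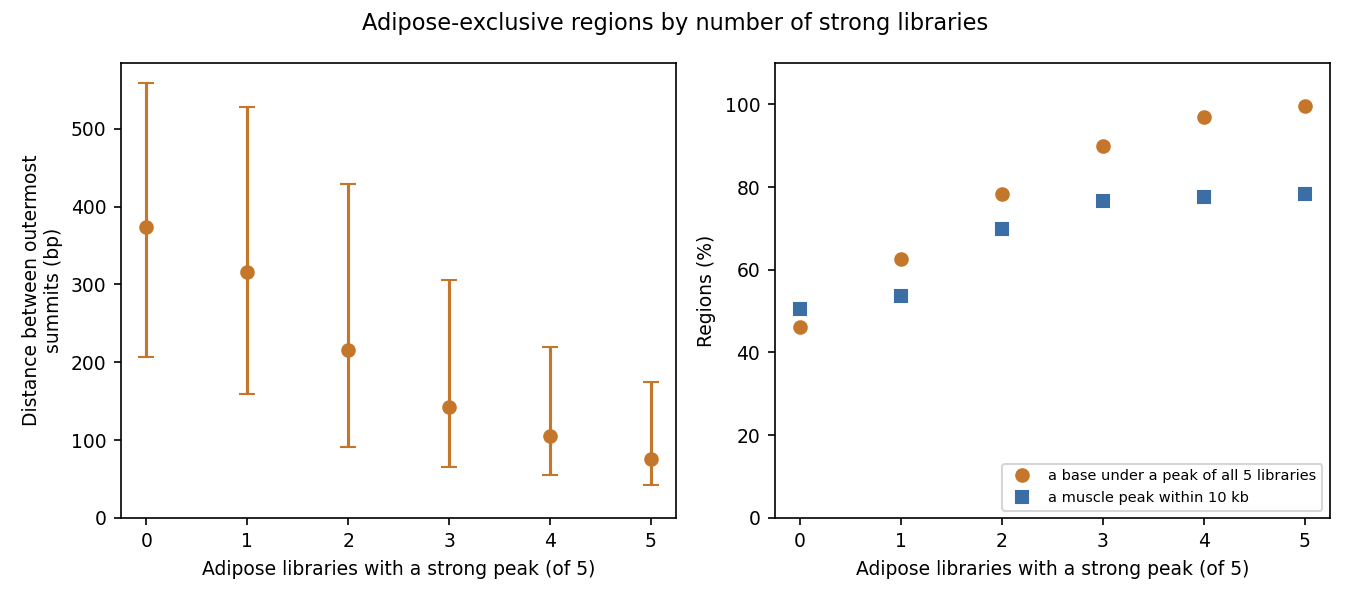
Adipose-exclusive regions grouped by the number of adipose libraries with a strong peak (0 to 5). The left panel shows the distance in bp between the outermost strongest summits of the 5 libraries (median and quartiles), which falls from 374 to 76 bp; the right panel shows the share of regions with a base under all 5 libraries (circles, 46.3% to 99.5%) and with a muscle peak within 10 kb (squares, 50.6% to 78.3%).

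The widest regions were mostly chains of separate peaks. The 10 widest measured 1919 to 2534 bp, 3 of them had a base shared by all 5 libraries, and their outermost summits lay 1141 to 1848 bp apart. The first, at chr19:16750790-16753323, had 14, 63, 29, 29 and 14 reads at its strongest summit in adipose replicates 1 to 5, so replicate 2 was the highest. At chr9:101177843-101180234 the reads were 11, 21, 18, 23 and 21, with replicate 1 the lowest and no base common to all libraries. A region at chr14:15499988-15502299 had 15, 18, 22, 19 and 21 reads and a shared stretch of 483 bp. The other 7 were at chr8:40743954-40746066, chr2:261614882-261616944, chr15:89705031-89707079, chr2:59340917-59342928, chr11:83455811-83457816, chr4:94251085-94253007 and chr1:150375058-150376976. Over all 10, summit reads ranged from 11 to 63 and the best −log10 q of a region from 4.38 to 22.6.

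Held-out libraries were used to ask whether such regions recur in libraries that did not choose them. For each number from 1 to 5, the adipose and the muscle library with that number were set aside, the same rule on calls was applied to the other 8 libraries, and the regions found were read in the 2 libraries set aside. The regions themselves had been merged from the peaks of all 10 libraries. A held-out peak could thus widen or join regions, but it did not count in their choice. The rule found 10096, 8493, 8955, 8313 and 8360 regions. Of these, 67.6%, 71.7%, 71.4%, 74.8% and 76.2% had a peak in the held-out adipose replicates 1 to 5. In the held-out muscle replicates 1 to 5 the shares were 13.6%, 4.66%, 7.86%, 6.24% and 8.17%, and no muscle value reached an adipose value. The mean share was 72.3 ± 3.32% in held-out adipose libraries and 8.11 ± 3.38% in held-out muscle libraries (SD, n = 5 each), a difference of 64.2 percentage points (two-sided exact permutation p = 0.00794, the smallest 5 against 5 allow). Rat numbers from 1 to 5 appear in the titles of either tissue, without saying whether a number stands for the same animal; with same-numbered libraries taken as pairs, the exact sign-flip permutation p was 0.0625, which is the smallest 5 pairs allow and does not pass 0.05. The background, the share of all regions with a peak in any of the other 8 libraries that had one in the held-out library, was 23.0% for adipose and 20.3% for muscle. Adipose recurrence lay above its background, and muscle calls below theirs, in all 5 turns. The background holds regions with a peak in as few as 1 library of either tissue. The chosen regions had a peak in every choosing adipose library and in no choosing muscle library. Both directions thus follow in part from the choice, and the comparison with this background carries little weight of its own. The 5 turns share libraries, so their values are not fully independent. Each library also helped to choose the regions in the other turns, and the shares were permuted without repeating the choice. The p-values thus describe how far these shares separate and are not a full test of the tissues.

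Regions of all 4 remaining adipose libraries, whatever their muscle calls, recurred in the held-out adipose library in 90.5 ± 3.61% of cases and in the held-out muscle library in 76.8 ± 3.14%. In each of the 5 turns this adipose share was above that of the regions chosen for having no muscle peak. Muscle replicate 1, which has the longest muscle list, took up the largest share of the chosen regions, and the median −log10 p of the peaks that a held-out muscle library had in them was 3.56 to 5.20. When the adipose side was limited to replicates 2, 3 and 4, the shares were 49.7% and 6.28% (exact permutation p = 0.0179, the smallest for 3 against 5). In turns that held out an adipose library, 2 of these chose the regions. In turns with only a muscle library held out, all 3 did. When the adipose side was limited to replicates 1 and 5, the shares were 21.7% and 3.44% (exact permutation p = 0.0476, the smallest for 2 against 5). Here 1 adipose library chose the regions in turns that held out an adipose library, and both did in the others. The 2 shares of a subset thus rest partly on different choices of regions, which limits their comparison.

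Recurrence in adipose was higher for regions that were strong in more of the choosing libraries. Among regions strong in none of the 4 choosing adipose libraries, 50.9 ± 7.31% had a peak in the held-out adipose library. It was 60.9 ± 4.04% with 1 strong library, 73.5 ± 6.59% with 2, 84.0 ± 5.15% with 3 and 93.9 ± 3.37% with 4 (SD, n = 5). The order held for the means, and the lowest value with 4 strong libraries, 88.4%, was above the highest with 2, 78.3%. In held-out muscle the mean share rose from 0 to 3 strong libraries, at 5.57 ± 3.58%, 7.72 ± 3.69%, 8.99 ± 3.57% and 9.50 ± 3.28%. With 4 it was lower again, at 8.22 ± 3.36%, and the values of the 5 turns overlapped between all classes.

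**Figure D4:**
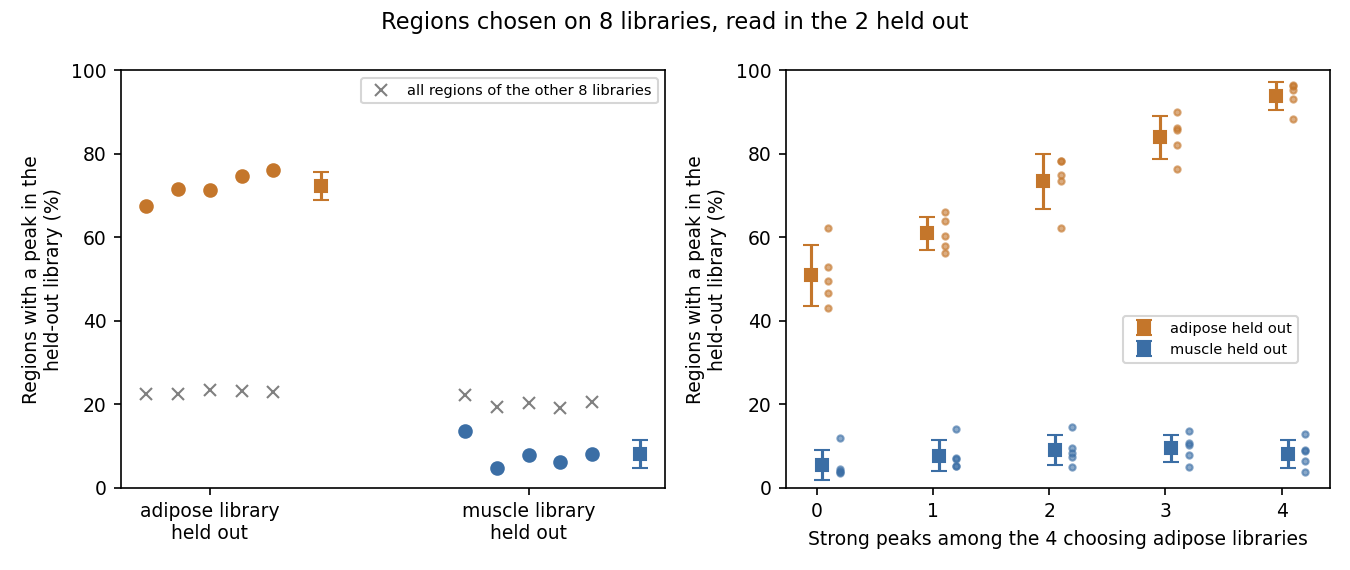
Share of regions, chosen on 8 libraries, that had a peak in the held-out adipose or muscle library (left; circles are the 5 turns in order of replicate number, squares the mean and SD, crosses all regions of the other 8 libraries), and the same share by the number of strong peaks among the 4 choosing adipose libraries (right; squares the mean and SD, dots the 5 turns). Adipose values lie between 67.6% and 76.2% and muscle values between 4.66% and 13.6%.

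At the edge of the rule, 11576 regions lacked a peak in 1 adipose library and had none in muscle. The missing library was adipose replicate 1 in 2929 cases (25.3%), replicate 2 in 2304, replicate 3 in 2458, replicate 4 in 2001 and replicate 5 in 1884 (16.3%). On the other side, 2929 regions were called in all 5 adipose libraries and in a single muscle library, which was muscle replicate 1 in 1036 cases (35.4%) and replicate 2 in 293 (10.0%). That lone muscle peak had a median of 15 reads (quartiles 12 and 19), a median fold enrichment of 2.65 and a median −log10 p of 4.10, and 420 of the 2929 (14.3%) were strong. In adipose these regions resembled the adipose-exclusive ones, with a median percentile of 71.3 ± 1.12 against 71.0 ± 1.82 (SD, n = 5 libraries). The 5 regions just inside the rule by strength had a best −log10 q of 2.63 to 2.70 and 10 to 17 reads in every adipose library. They were at chr16:84456824-84457167, chr11:36654838-36655236, chr2:47734421-47734986 and chr2:69141345-69142210, and chr6:20088718-20089487. Of these, 1 had a base under all 5 libraries.

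Summits of the strongest regions mostly lay close together across the adipose libraries. The 10 regions whose worst percentile over the adipose lists was best ranked between 94.4 and 95.4 in their worst list, and all 10 were strong in all 5 libraries and had a base shared by them. Their median summit distance was 37.5 bp (range 13 to 256 bp), and summit reads ranged from 29 to 105. They were not narrow, at 489 to 1528 bp, where the median adipose-exclusive region measured 666 bp. The nearest muscle peak lay 1211 to 138733 bp away, with a median of 10308 bp.

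At chr10:50724609-50725622, the region of best rank, there were 42, 78, 48, 54 and 38 reads in adipose replicates 1 to 5. The fold enrichments were 7.43, 10.4, 8.45, 7.46 and 9.25, each more than 3 times the muscle limit of 1.92. This region had the widest surroundings free of muscle peaks among the 10, at 138733 bp, with another adipose-exclusive region 23085 bp away. The region at chr18:3134028-3134826 had 29, 76, 49, 44 and 36 reads, again highest in replicate 2. At chr2:263932185-263933155 the reads were 66, 88, 74, 71 and 51, and the summits of the 5 libraries lay within 29 bp. The libraries differed there by less than 2-fold in reads.

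The region at chr7:70421934-70422663 had 59, 82, 57, 58 and 51 reads. Another, at chr4:49515795-49516673, had 39, 52, 70, 51 and 41 reads, highest in replicate 3. No replicate was thus the highest in all of them. At chr1:191763950-191765262 there were 50, 64, 58, 50 and 43 reads, and 882 of the 1313 bp were under peaks of all 5 libraries. The region at chr7:143292439-143293966 had 47, 66, 65, 47 and 71 reads and the longest shared stretch of the 10, at 920 bp. It was also the nearest of the 10 to a muscle peak, at 1211 bp.

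The tightest of the 10 was at chr1:215633662-215634150, 489 bp wide, with all 5 summits within 13 bp. It had 56, 64, 105, 100 and 83 reads, the most of these regions, but fold enrichments of only 7.38, 7.54, 8.51, 7.20 and 7.91, since the local background was high there too. The last 2 were at chr1:219703468-219704144, with 29, 48, 49, 44 and 37 reads, and at chr2:182816981-182817842, with 32, 43, 65, 45 and 43 reads. In both, replicate 1 was the lowest in reads.

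Adipose-exclusive regions were unevenly spread over the chromosomes. Chromosome 2 held 707 of them, 14.7% of its 4806 regions called in all 5 adipose libraries, against 9.89% over all autosomes. Chromosomes 14, 15 and 18 followed at 12.2%, 11.8% and 11.7%. The lowest shares were on chromosome 10, with 206 of 3619 (5.69%), chromosome 12, with 93 of 1538 (6.05%), chromosome 19 at 6.81% and chromosome 20 at 6.97%. Muscle-exclusive regions, set against the regions called in all 5 muscle libraries, varied less, from 18.0% on chromosome 20 to 24.1% on chromosome 18, with 20.8% on chromosome 2 and 23.2% on chromosome 10. Counted on adipose replicates 1 and 5 by themselves, with peaks merged anew, the share of regions without a muscle peak was 40.7% on chromosome 2 and 13.3% on chromosome 10. On replicates 2, 3 and 4 by themselves it was 24.4% and 10.6%. Both chromosomes were picked as the highest and the lowest in these same libraries, so their difference is a description.

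The difference between these chromosomes changed in size with the peaks used. Among regions defined by strong peaks, the adipose-exclusive share was 7.99% on chromosome 2 and 4.68% on chromosome 10, a difference of 3.31 percentage points in place of 9.02. It was 3.99 points for the 100000 strongest peaks of each library and 9.06 for the 50000 strongest. At a common floor on the p it was 8.08. The shares on chromosomes 2 and 10 were 14.7% and 5.69% with all peaks, and 10.4% and 6.37% for the 100000 strongest. Both were higher for the 50000 strongest, at 18.0% and 8.92%, and they were 14.7% and 6.61% at the common floor. The points thus do not compare these settings on an equal base, and the part of weaker peaks in the difference was not tested. Where a base under all 5 adipose libraries was asked for, the difference was 5.76 points. The adipose-exclusive regions of chromosome 2 were less often strong in all 5 libraries, at 15.1%, than those of chromosome 10, at 23.3%, or chromosome 12, at 28.0%. Their nearest muscle peak was also farther away, at a median of 7177 bp against 1958 and 1802 bp.

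**Figure D5:**
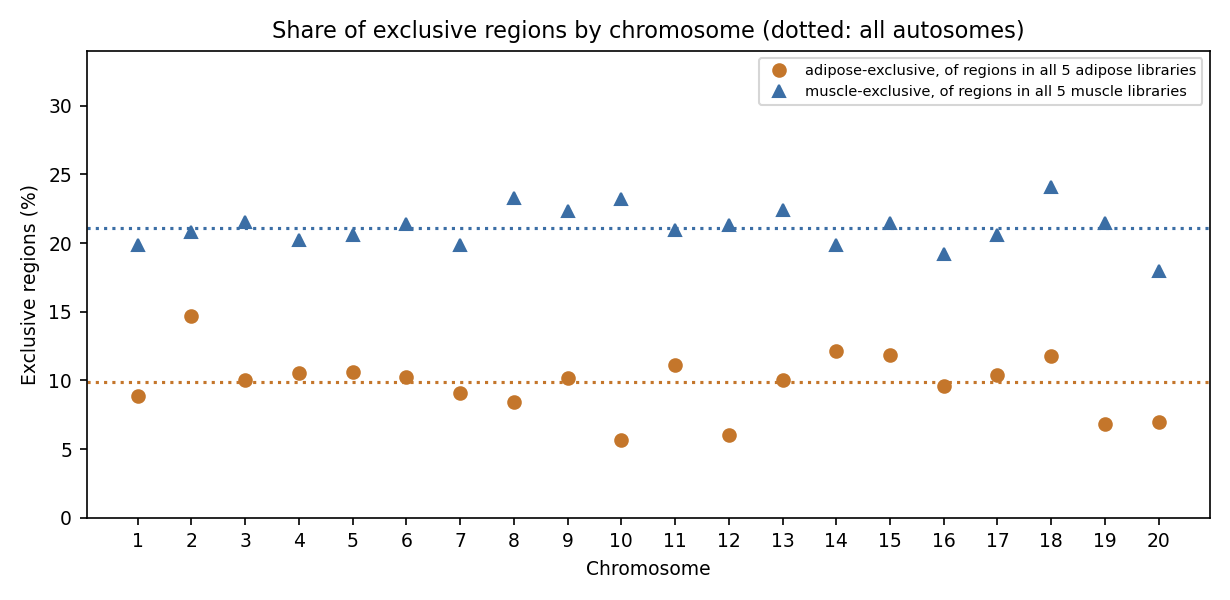
Exclusive regions by chromosome, as a percentage of the regions called in all 5 libraries of the same tissue (circles adipose, triangles muscle, dotted lines all autosomes at 9.89% and 21.1%). The adipose share runs from 5.69% on chromosome 10 to 14.7% on chromosome 2, and the muscle share from 18.0% to 24.1%.

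Most adipose-exclusive regions had a listed muscle peak within 10 kb. The nearest muscle peak of any library was at a median of 4008 bp (quartiles 1259 and 12493 bp). It was within 500 bp for 625 regions (10.8%), within 1 kb for 1192 (20.6%), within 10 kb for 4060 (70.1%) and within 100 kb for 5726 (98.8%). In the 100 kb window around them, 4044 regions (69.8%) had a peak of all 5 muscle libraries and 268 (4.63%) a peak of none. The same shares at random autosomal positions were not counted, so these values do not show closeness to muscle peaks. The nearest region called in all 5 muscle libraries was farther, at a median of 16277 bp, and the nearest called in all 10 libraries at 27124 bp.

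Regions called in fewer adipose libraries had a muscle peak nearby less often than the adipose-exclusive ones, with no steady order among them. For regions without a muscle peak called in 1, 2, 3 and 4 adipose libraries, 59.9%, 56.5%, 57.2% and 61.2% had a muscle peak within 10 kb, against 70.1% of the adipose-exclusive ones. The median distance to a region called in all 10 libraries was 89070, 135856, 138946 and 85743 bp, against 27124 bp. When a muscle peak within 500 bp was also counted as a muscle call, 5168 of the 5793 regions met the rule.

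Few windows of 100 kb held more than 2 adipose-exclusive regions. Neighbouring adipose-exclusive regions were a median of 243239 bp apart. Of these regions, 596 (10.3%) had another within 10 kb and 2865 (49.5%) had another within 100 kb. Whether they lay closer together than by random placement was not tested. Of the fixed windows of 100 kb with any of them, 3954 held 1, 703 held 2, 114 held 3, 19 held 4 and 3 held 5. In the window at chr3:173300001-173400000, which held 5, adipose replicates 1 to 5 had 15, 17, 10, 21 and 16 peaks and muscle replicates 1 to 5 had 4, 1, 0, 0 and 0. This window had 7 regions called in all 5 adipose libraries, none called in all 10, and 0 of its 5 adipose-exclusive regions were strong in every adipose library.

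On chromosome 5 there were 2 windows with 5 adipose-exclusive regions, less than 1 Mb apart. In the first, at chr5:137300001-137400000, adipose libraries had 22, 15, 17, 15 and 20 peaks and muscle libraries 8, 6, 6, 4 and 9. In the second, at chr5:138100001-138200000, there were 17, 19, 18, 14 and 17 in adipose and 10, 7, 7, 8 and 9 in muscle. Both held 3 regions called in all 10 libraries and 2 adipose-exclusive regions that were strong in all 5 adipose libraries, so open chromatin of both kinds lay side by side there.

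The 22 windows with 4 or 5 of these regions lay on 9 chromosomes. In 16 of them every adipose library had more peaks than any muscle library, and in the other 6 the numbers met or overlapped; peak numbers in these windows are partly fixed by the choice of the windows, and the adipose lists are longer. A window at chr1:33100001-33200000 averaged 16.8 ± 4.32 adipose peaks and 0.400 ± 0.548 muscle peaks per library (SD, n = 5 each). At the other end, a window at chr1:87100001-87200000 averaged 19.2 ± 3.35 adipose and 22.2 ± 1.79 muscle peaks, with 6 muscle-exclusive regions and 6 called in all 10 libraries. The window with most muscle peaks, at chr8:116000001-116100000, averaged 24.2 ± 2.77 and 23.4 ± 3.44. Muscle-exclusive regions were present in 6 of the 22 windows and regions called in all 10 libraries in 14, and in none of the 22 were all 5 muscle libraries without a peak.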

How the data were processed

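ATAC-seq peak lists of 5 adipose and 5 muscle libraries, grouped by title, were used as deposited. Per the submitters' processing notes, coordinates are on rn6, and the tools were MACS2, Bowtie2, Trimmomatic, Picard and FastQC; their versions, roles and settings, among them transposase shifting and duplicate removal, are not given in the sources used here. There is 1 list per library, and the peak numbers have gaps, as left by a filter that is not stated. Rows as deposited hold a score (10 times the −log10 p as a whole number), a fold enrichment, which is a ratio to the library's own background, a −log10 p and a −log10 q by the authors, and a summit. Score was not used further.

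Rows sharing an interval were taken as 1 peak with its strongest summit. Percentiles are of fold enrichment within a list. Reads at a summit were solved from fold and p, as stated beside the values, and the genome-wide background from the spacing of fold values. Depth in total reads is unknown. The 5 against 5 comparison used a two-sided exact permutation test of the held-out shares, without repeating the choice of regions. The code was tested on simulated data and returned 300 of 300 planted regions and 486 of 486 known pileups.

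Named regions are the 10 of best worst percentile, the 10 widest, the 5 weakest by best −log10 q, and the 100 kb windows with most regions. Members, rules and lists were chosen with earlier results of these data known. Gene positions, GC content and motifs had been planned and need a genome of rn6, which was not used here. Alternatives were lists at a common floor or of strong or top-ranked peaks, another merging rule, chromosome X and libraries left out; those on 1 tissue's floor, on muscle peaks nearby and on a shared base, and the comparison of chromosomes 2 and 10, were chosen after seeing the data. Python 3.11.15, NumPy 2.4.6, pandas 2.3.3, SciPy 1.17.1 and matplotlib 3.10.9 were used.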

Additional observations from a re-analysis of the deposited data

Results flagged for a closer look

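Over 43 sets of 5 libraries, 6 values stood apart from the other 4 libraries of their tissue by more than 0.71 of the range, where chance sets off about 1 in 20. They are given as values. Adipose replicate 1 had the lowest share of strong peaks among the adipose-exclusive regions, 38.6%, with the next at 56.5%. Adipose replicate 2 had the highest fold enrichment in the widest region, at chr19:16750790-16753323, at 4.97 with the next at 3.36. Among the regions just inside the rule, adipose replicate 5 was highest at chr11:36654838-36655236, at 3.08 with the next at 2.73. On chromosome 2, adipose replicate 2 was highest at 47734421 to 47734986, with 2.88 against 2.75, and at 69141345 to 69142210, with 2.94 against 2.75. Muscle replicate 1 had 4 peaks in the window at chr3:173300001-173400000, where the next muscle library had 1.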

How the results depend on the processing

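The number of adipose-exclusive regions, 5793, was between 6089 and 8661 with 1 library left out, which loosens the rule by construction. It was 5259 at a −log10 p floor of 4.27 common to all lists, 6378 for 500 bp around summits and 5860 with chromosome X. It moved by more than 1.5 times to 2008 for strong peaks, 3543 and 3233 for the 50000 and 100000 strongest peaks per library, 3177 where peaks had to cover 50% of a region, 30091 with adipose replicates 1 and 5 alone and 14286 with replicates 2, 3 and 4 alone. Chosen after seeing the data, the common floor on the adipose lists alone gave 3776 and on the muscle lists alone 8076, and a base under every adipose library gave 4805. For the settings on peaks and cover, the cause was not tested. Median width was 682 bp at the common floor and 727 bp for strong peaks. The held-out difference of 64.2 points was positive in all 17 alternatives, from 18.2 with adipose replicates 1 and 5 alone to 77.9 for the 50000 strongest peaks, and from 54.4 to 64.0 with 1 library left out, each with an exact permutation p of 0.00794 except with subsets of adipose libraries. Where libraries were left out, some turns held out a library of 1 tissue only, so the adipose and muscle shares rest partly on different choices of regions. In all of these the shares were permuted without repeating the choice, which limits the p-values. With a replicate block (sign-flip over same-numbered libraries) the difference of 64.2 had an exact p of 0.0625, the smallest 5 pairs allow; same-numbered libraries did not vary together (r −0.00399 to 0.0132), and 0 of the 5 adipose libraries correlated best with their own number. The share on chromosome 2 exceeded that on chromosome 10, a pair chosen after seeing the data, in all 23 alternatives, by 3.31 to 27.4 points, the widest with adipose replicates 1 and 5 alone. Start sites, GC content and motifs were not run. No peak of these regions had fewer than 10 reads at its adipose summit. At the genome-wide background the adipose lists themselves ended at 10 to 16 reads. The parts of depth and of a possible cut in the number of rows in this were not tested. Small counts limit what single regions show.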
